A study of Homo sapiens with 8 samples.

Results

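The Polo-like kinases PLK1, PLK2, PLK3 and PLK4 were examined in HCT116, a cell line established from a human colon carcinoma that keeps a working p53. The members were found by the gene symbol of their probe sets, which gave 4 probe sets, 1 per gene, among 18417 genes of a table of 33297 probe sets. The family was chosen on values already seen in these arrays, namely the serum responses of PLK2 and PLK3 and the differences of these genes between the lines in starved cells. Their values in the serum comparisons, in starved cells and in the difference between the serum responses are therefore given as a description, with errors and without p-values. Those values also fix the difference between the lines after serum for PLK2 and PLK3, which is likewise a description. For PLK1 and PLK4, whose values did not enter the choice, the test of the lines after serum is given. That test is not independent of earlier results, since lower mitotic genes in starved shCDK8 cells were already known from these arrays.

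The study compared shControl cells, which express a control short hairpin RNA, with shCDK8 cells, whose hairpin is directed against CDK8, the kinase of the Mediator complex. All cells went through 40 h of starvation in McCoy's 5A medium and were harvested then, at 0 min, or after 30 min with 10% FBS. This gave 4 groups of 2 arrays, 8 arrays of total RNA in all. Each line carried a single hairpin, so a line difference holds the knockdown together with anything else in which the lines differed, and whether a line was 1 clone or a pool is not given in the sources used here.

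Polo-like kinases share a serine/threonine kinase domain and a C-terminal Polo-box region that docks them to their targets. PLK1 drives entry into mitosis, spindle assembly and cytokinesis, and its transcript peaks in G2 and mitosis. PLK4 starts centriole duplication. PLK2 and PLK3 are encoded by early-response genes whose transcripts are induced by serum and by stress, PLK2 being also a p53 target with roles in centriole and synapse biology and PLK3 a kinase of stress signalling. PLK5, the last human member, has a shortened kinase domain and is mostly found in brain.

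The arrays were alike in scale. Their medians lay between 6.44 and 6.51 on the log2 scale, and duplicates correlated across genes with r between 0.997 and 0.998. Probe set 7968199, which the annotation pairs with CDK8 and ADRA1B, had group means of 9.20 and 9.22 in shControl and 7.04 and 7.05 in shCDK8 cells. Of 10 epithelial and colonic markers, EPCAM averaged 11.76 and KRT8 12.49, while VIL1 averaged 5.61 and CDH17 4.27. On single arrays the mean of these 10 markers was 8.84 to 8.91 in shControl and 8.90 to 8.97 in shCDK8 cells. The mean of 10 mesenchymal markers was 5.62 to 5.70 and that of 9 blood and endothelial markers 5.18 to 5.37. Of the latter no gene passed the test in any comparison, and of the mesenchymal markers ACTA2 alone passed, between the lines. Of the epithelial markers the keratins KRT8 and KRT18 were higher and KRT19 lower in shCDK8 cells before and after serum, and CDH1 was higher after it. Over all genes 7.13% were higher and 6.28% lower in starved shCDK8 cells, and 7.70% and 6.54% after serum. The ACTA2 call, 1 of 10 markers, is near that background. The KRT19 call ended in starved cells without starved array 1 of shControl cells or either starved array of shCDK8 cells, and after serum without serum array 2 of shControl cells, and 2 in place of 3 markers were higher after serum without any single serum array. The ACTA2 call in starved cells ended without any single starved array. The part of these differences in the results was not tested. Whether duplicates came from separate cultures is not given, so errors and p-values measure the spread between these arrays, which may be technical.

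The 4 kinases followed different patterns over the 4 groups. PLK2 differed most, with a lowest array of 8.25 and a highest of 11.47, a range of 3.22. PLK3 ranged over 0.85, PLK4 over 0.70 and PLK1 over 0.63, each with a largest gap between duplicates of 0.21, 0.19 and 0.10 in that order. Levels of different probe sets are not on a common scale, so each gene is compared with itself alone. As bulk RNA was measured, a change in the share of cells that hold a transcript and a change in its amount per cell cannot be told apart.

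**Figure D1:**
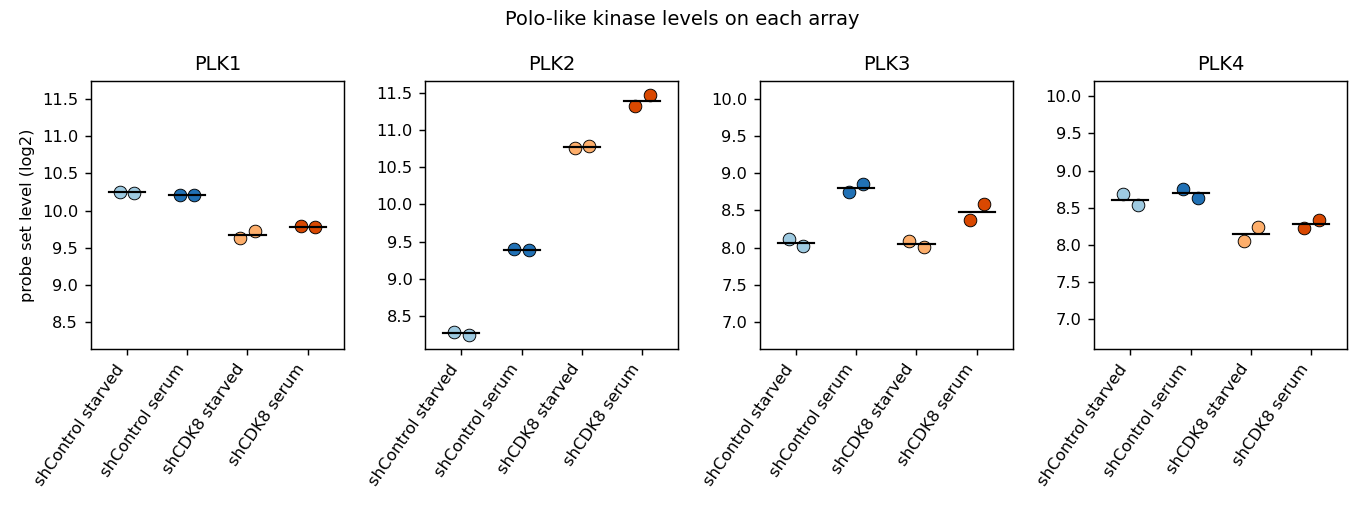
Probe set levels (log2) of PLK1, PLK2, PLK3 and PLK4 on each of the 8 arrays, 1 panel per gene with the same axis span of 3.6; points are arrays and lines are means of 2. PLK2 climbs from 8.27 in starved shControl to 11.40 in serum-treated shCDK8 cells, PLK3 is higher after serum in both lines, and PLK1 and PLK4 are lower in shCDK8 cells.

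Promoter sequences were examined for the pair of members that read higher after serum and the pair that read lower in shCDK8 cells. RefSeq entries of GRCh38.p14 matched all 4 genes, with 3 start sites for PLK4 and 1 for each other gene. PLK1 lies on chromosome 16 at 23678889 to 23690367 and PLK4 on chromosome 4 at 127880893 to 127899224. The 250 bases before the start site are printed 5′ to 3′ on the gene's strand, at chr16:23678639-23678888 (+) for PLK1 and at chr4:127880643-127880892 (+) for the most upstream PLK4 start. Capitals mark the motifs spelled out in the text where they lie wholly in the stretch.
PLK1: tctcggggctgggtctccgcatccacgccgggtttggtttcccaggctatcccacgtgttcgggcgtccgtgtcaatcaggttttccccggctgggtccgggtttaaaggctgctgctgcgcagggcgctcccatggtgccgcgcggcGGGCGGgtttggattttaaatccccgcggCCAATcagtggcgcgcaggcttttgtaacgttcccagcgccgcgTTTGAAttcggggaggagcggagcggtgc
PLK4: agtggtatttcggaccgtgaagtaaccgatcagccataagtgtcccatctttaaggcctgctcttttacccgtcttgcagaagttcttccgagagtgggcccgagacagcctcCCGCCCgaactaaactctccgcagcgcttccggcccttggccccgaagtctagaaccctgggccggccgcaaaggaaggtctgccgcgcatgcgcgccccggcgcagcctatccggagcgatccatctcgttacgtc

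In PLK1 the capitals are, from left to right, a GC box (GGGCGG) at -102 to -97, a CCAAT box, spelled by its name, at -73 to -69 and a CHR at -29 to -24, searched as TTTGAA. The CHR, or cell cycle genes homology region, is the element through which the DREAM and MuvB complexes time G2 and mitotic genes. In the PLK4 stretch the capitals are a GC box on the opposite strand, at -137 to -132. In the same 300-base window PLK4 also held the CHR letters on the opposite strand, at +39 to +44, past the printed end. The most downstream PLK4 start, not printed, had a CCAAT box on the opposite strand at -86 to -82. GC boxes lay near that start and near the middle start. Among all 35116 promoters of this length, 15.2% held the CHR letters, 34.6% the CCAAT letters and 45% the GC box letters, on either strand.

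The PLK2 and PLK3 promoters are shown for comparison with these. PLK2 lies on chromosome 5 at 58453982 to 58460086, on the minus strand, and PLK3 on chromosome 1 at 44800377 to 44805990. The printed stretches are chr5:58460087-58460336 (-) and chr1:44800127-44800376 (+).
PLK2: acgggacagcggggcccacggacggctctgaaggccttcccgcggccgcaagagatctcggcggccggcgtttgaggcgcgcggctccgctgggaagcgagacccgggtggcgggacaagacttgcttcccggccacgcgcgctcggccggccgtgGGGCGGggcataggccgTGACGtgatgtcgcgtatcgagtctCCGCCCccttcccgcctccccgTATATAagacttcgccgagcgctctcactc
PLK3: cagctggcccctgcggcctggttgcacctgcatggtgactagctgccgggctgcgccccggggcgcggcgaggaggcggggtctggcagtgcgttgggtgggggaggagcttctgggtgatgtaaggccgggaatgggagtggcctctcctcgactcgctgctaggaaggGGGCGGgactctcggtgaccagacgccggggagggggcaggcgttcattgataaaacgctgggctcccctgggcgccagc

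In PLK2 the capitals are, from left to right, a GC box, the core of a CREB and ATF site (TGACG) at -77 to -73, a GC box on the opposite strand and a TATA box (TATANA) at -30 to -25. A match to the p53 decamer at -132 to -123 is left in lower case. In PLK3 the GC box at -80 to -75 is the single capital run, and another lies past the printed end at +43 to +48. The CREB and ATF core stood in 24.6% of all promoters, also in PLK4 across its start site at -4 to +1, the TATA box in 19.0% and the p53 decamer in 6.63%. The AP-1 site (TGANTCA, 7.71% of all promoters), the EGR1 site (GCGNGGGCG, 9.43%), the CArG box of SRF (1.29%) and E2F sites (TTTGGCGC, 0.652%, and TTTCCCGC, 1.63%) were found in none of the 6 windows of the family. All motifs were searched on both strands, and the letters of the EGR1 site and the GC box can overlap. These are matches of letters in 300 bases and not measured sites.

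The serum response is described first for PLK2 and PLK3, the early-response members. PLK2, probe set 8112202, read 8.29 and 8.25 in starved shControl cells and 9.41 and 9.38 after serum. In shCDK8 cells it read 10.75 and 10.79 before and 11.32 and 11.47 after serum. All serum arrays of a line stood above its starved arrays. The response was 1.12 ± 0.07 (SE, log2) or 2.18-fold in shControl and 0.63 ± 0.07 or 1.54-fold in shCDK8 cells, so that the log2 response of shCDK8 cells was 55.8% of that of shControl cells. The starved shCDK8 level lay 1.37 above the serum-treated shControl level, with no overlap.

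PLK3, probe set 7901054, read 8.12 and 8.02 in starved and 8.75 and 8.86 in serum-treated shControl cells. In shCDK8 cells it read 8.09 and 8.01 in starved cells and 8.37 and 8.58 after serum. Starved arrays of both lines were intermixed, and all 4 serum arrays lay above them. The response was 0.74 ± 0.09 or 1.66-fold in shControl and 0.42 ± 0.09 or 1.34-fold in shCDK8 cells, 57.5% of the former on the log2 scale.

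PLK1 and PLK4 moved little with serum. PLK1, probe set 7994109, read 10.26 and 10.24 in starved and 10.21 and 10.21 in serum-treated shControl cells, a difference of -0.04 ± 0.06. In shCDK8 cells it read 9.63 and 9.73 before and 9.79 and 9.78 after serum, a difference of 0.10 ± 0.06. The arrays of starved and serum-treated cells did not overlap in either line, with the serum arrays lower in shControl and higher in shCDK8 cells, but both 95% intervals hold 0. PLK4, probe set 8097356, read 8.68 and 8.53 in starved and 8.75 and 8.63 in serum-treated shControl cells, and 8.05 and 8.24 in starved and 8.23 and 8.33 in serum-treated shCDK8 cells. Its starved and serum arrays overlapped in both lines, with differences of 0.08 ± 0.09 and 0.14 ± 0.09.

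With the threshold of 0.05 on the adjusted p of limma's test over all genes, PLK2 and PLK3 counted among the genes higher after serum in shControl cells, a call that 0.424% of the 18417 genes received. PLK2 alone of the family was called higher in shCDK8 cells, as were 0.250% of all genes. Nothing is read from these counts, since the family was chosen with them known. Arrays of 2 groups of 2 that do not overlap are common in this table: 39.7% of genes in the serum comparison of shControl cells, 41.2% in that of shCDK8 cells, and 52.1% and 53.9% between the lines before and after serum. The PLK3 call in shControl cells ended without starved array 2 (0.69) or serum array 2 (0.68) of that line. The PLK2 call in shCDK8 cells ended without starved array 1 (0.61), starved array 2 (0.64) or serum array 2 (0.555) of that line.

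The difference between the lines' responses was -0.50 ± 0.10 for PLK2 and -0.31 ± 0.12 for PLK3, each the smaller response in shCDK8 cells. For PLK1 it was 0.14 ± 0.09 and for PLK4 0.05 ± 0.13, and the 95% intervals of -0.06 to 0.35 and -0.23 to 0.33 hold 0. In limma's test of this difference 0 of 18417 genes passed (0% of all genes), while 703 had an unadjusted p below 0.05, and when the prior variance was allowed to follow intensity 7 genes passed, PLK2 among them. A smaller response of PLK2 and PLK3 in shCDK8 cells is thus a description of these arrays.

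**Figure D2:**
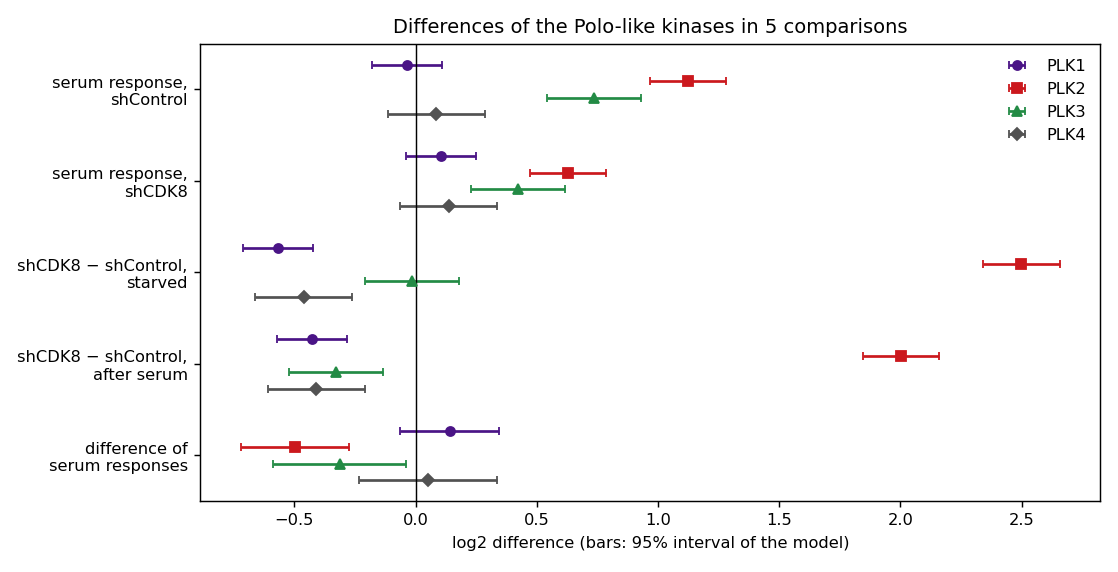
Log2 differences of the 4 kinases in the 5 comparisons, with 95% intervals of the model fitted to all 8 arrays. PLK2 stands at 2.50 and 2.0 between the lines, PLK1 and PLK4 lie below 0 in both line comparisons, and the intervals of PLK1 and PLK4 cross 0 in the serum comparisons.

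Between the lines after serum, PLK1 and PLK4 were lower in shCDK8 cells. Lower mitotic genes in starved cells of this line were already known, so the p-values here are not independent of earlier results. PLK1 was 1.35-fold lower (-0.43 ± 0.06, adjusted p = 0.00192 in limma's test with Benjamini-Hochberg adjustment) and PLK4 1.33-fold lower (-0.41 ± 0.09, adjusted p = 0.0134), a direction in which 6.54% of all genes were called. PLK2 read 4.01-fold higher in shCDK8 cells (log2 2.0 ± 0.07) and PLK3 1.25-fold lower (-0.33 ± 0.09). Both were past the threshold, as were 7.70% of all genes upward, and nothing is read from that, since each difference is the sum of the starved difference and the difference of responses. For all 4 genes the arrays of the lines did not overlap, as for 53.9% of all genes.

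The PLK1 call held in all 15 alternative fits of this comparison, with adjusted p between 1.37e-05 and 0.0191. The PLK4 call ended without serum array 1 of shControl cells (-0.35, adjusted p = 0.102) or of shCDK8 cells (-0.36, adjusted p = 0.0870), and its lowest adjusted p over the alternatives was 0.00166. PLK3 was no longer past the threshold without serum array 1 (-0.38) or 2 (-0.27) of shControl cells, without serum array 1 of shCDK8 cells (-0.22), or in a fit of the 4 serum arrays alone.

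In starved cells the line difference was 2.50 ± 0.07 or 5.65-fold for PLK2, -0.57 ± 0.06 or 1.48-fold lower for PLK1 and -0.46 ± 0.09 or 1.38-fold lower for PLK4. PLK3 did not differ beyond its error, at -0.01 ± 0.09 with a 95% interval of -0.21 to 0.18. PLK2 ranked 8 from the top among 18417 genes here and 20 after serum. In the call over all genes, PLK2 was higher, as were 7.13% of genes, and PLK1 and PLK4 lower, as were 6.28%, with nothing read from these counts for the reason given. The PLK4 call in starved cells ended without starved array 1 of shControl (-0.38) or of shCDK8 cells (-0.37).

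In order of level, PLK2 ran from starved shControl through serum-treated shControl and starved shCDK8 to serum-treated shCDK8 cells, with no overlap between neighbours. The order for PLK1 ran from starved shCDK8 through serum-treated shCDK8 and serum-treated shControl to starved shControl cells, and no neighbours overlapped. For PLK3 the starved groups overlapped at the bottom, followed by serum-treated shCDK8 and then serum-treated shControl cells. For PLK4 the groups of shCDK8 cells overlapped below the overlapping groups of shControl cells. PLK5, probe set 8024331, had group means between 7.06 and 7.16 and passed in no comparison, with differences between -0.10 and 0.08.

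**Figure D3:**
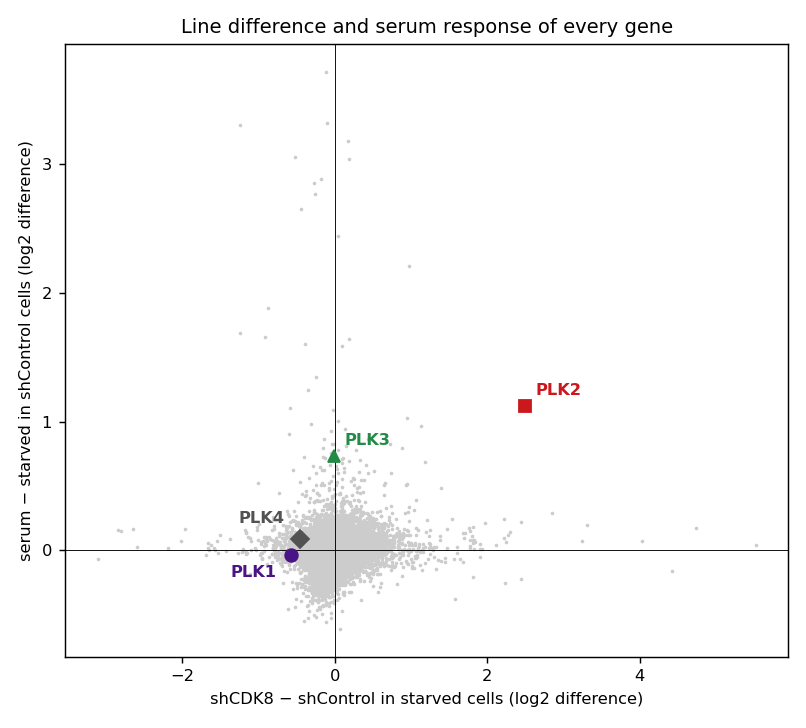
Line difference in starved cells (horizontal axis, log2) against the serum response in shControl cells (vertical axis, log2) for 18417 genes in grey, with the 4 kinases marked; both axes use the starved shControl arrays. PLK2 stands at 2.50 and 1.12, PLK3 at -0.01 and 0.74, PLK4 at -0.46 and 0.08 and PLK1 at -0.57 and -0.04.

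The genes most like each member were found by the root mean square difference over the 8 arrays after each gene's own mean was subtracted. As these same arrays picked them, their agreement with a member's values is built in and is no support. For PLK1, whose own root mean square deviation was 0.253, the nearest were the cytokinesis scaffold ANLN (0.0226), TIMELESS and POLA1 of DNA replication (0.0288 and 0.0289), the ketone body enzyme OXCT1 (0.0316) and the condensin subunit NCAPG (0.0333). ANLN differed between the lines by -0.59 before and -0.44 after serum. For PLK4 (0.236) they were SMC5 of the SMC5/6 complex (0.0314), NAB1, a corepressor of EGR factors (0.0409), ATP8B1, SPOPL and MTFR2, the last at 0.0490. SMC5 differed by -0.44 and -0.40.

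For PLK3 (0.319) the nearest genes were the clock gene PER1 (0.0676), SOWAHC (0.0706), the cyclin CCNL1 (0.0745), the transcription factor SRF (0.0747) and the pro-apoptotic PMAIP1 (0.0812). PER1 responded to serum by 0.77 in shControl and 0.47 in shCDK8 cells, beside 0.74 and 0.42 for PLK3. This closeness is what the measure selected for. PLK2, whose own deviation was 1.21, had no gene as near, and the first were PLA2G7 (0.351), the Notch ligand JAG1 (0.371), ARHGAP42 (0.391), the guidance ligand SLIT2 (0.409) and PHLDB2 (0.410). These 5 had line differences in starved cells of 1.80 to 2.45 but serum responses in shControl cells of 0.09 to 0.25, where PLK2 had 1.12. The measure grows with a gene's own deviation, so the larger distances for PLK2 do not show that its pattern is particular to it. Ranked by correlation in place of this measure, 2 of the 5 genes stayed for PLK1, 0 for PLK2, 2 for PLK3 and 1 for PLK4. Nearest to PLK2 by correlation were EPHA2, ZFP36L1, KDM5B, ID1 and GOLIM4.

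Of 18 activators, partners and substrates of PLK1, 12 were lower in shCDK8 cells after serum, 1 was higher and 5 did not pass (median -0.36, against -0.01 over all genes). In starved cells 13 were lower, 1 was higher and 4 did not pass (median -0.41). After serum fewer were lower when any single serum array was left out. Fewer were lower in starved cells without either starved array of shControl or starved array 1 of shCDK8 cells. Over all genes 6.54% were lower and 7.70% higher after serum, and 6.28% lower and 7.13% higher in starved cells. After serum they included the phosphatase CDC25C, which activates CDK1 (-1.23 ± 0.09, adjusted p = 1.58e-05), the kinesin KIF20A (-0.93 ± 0.08), CDK1 itself (-0.69 ± 0.06) and the midzone protein PRC1 (-0.51 ± 0.06). AURKA, the kinase that activates PLK1, was also lower (-0.39), and the centrosomal NINL was the member that was higher, at 0.46. Of 12 other mitotic kinases, 10 were lower in each comparison (medians -0.43 after serum and -0.47 in starved cells), among them TTK (-0.62 ± 0.08) and NEK2 (-0.57 ± 0.06) after serum. Fewer of these kinases were lower after serum without any single serum array, and in starved cells without starved array 1 of either line. The lists share 4 genes, and lower mitotic genes in starved shCDK8 cells were already known from these arrays when the lists were written.

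Of 18 genes of centriole duplication, the process that PLK4 starts, 5 were lower after serum and 8 in starved cells, and none was higher (medians -0.16 and -0.21), beside 6.54% and 6.28% of all genes that were lower. CEP135 (-0.64 ± 0.10) and the PLK4 recruiter CEP152 (-0.63 ± 0.07, adjusted p = 0.000357) were lowest after serum, followed by the cartwheel partners STIL (-0.48 ± 0.07) and SASS6 (-0.43 ± 0.08) and by RBM14 (-0.25 ± 0.07). The count of 8 was 4 without starved array 1 of shControl or of shCDK8 cells and 5 without starved array 2 of shControl cells. Of 14 regulators of cell cycle transcription, of the DREAM and MuvB complexes and their partners, 3 were lower after serum (TFDP1, TFDP2 and RBL1) and LIN9 was higher (0.41 ± 0.07). The count of 3 was 1 without serum array 1 of either line or serum array 2 of shControl cells, and 2 without serum array 2 of shCDK8 cells. With 6.54% of all genes lower and 7.70% higher, a count of 1 of 14 in either direction is near the background. None of these 4 lists had a member past the threshold in either serum comparison.

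Of 11 analysed substrates of PLK2 and PLK3, 5 were lower after serum in shCDK8 cells (CDC25A, CDC25C, CHEK2, TOP2A and JUN) and none was higher, beside 6.54% of all genes that were lower. The count was 3 without serum array 1 of shCDK8 or serum array 2 of shControl cells. JUN was also the 1 substrate that rose with serum, by 3.04 ± 0.12 in shControl and 2.33 ± 0.12 in shCDK8 cells. The substrate list shares CDC25C with the PLK1 list, 1 gene with the centriole list and 1 with the immediate-early genes, so these counts are not separate. Among 18 analysed p53 and stress targets, the class to which PLK2 belongs, 8 were higher and 2 lower in shCDK8 cells after serum (median 0.27), beside 7.70% and 6.54% of all genes. Fewer targets were higher without any single serum array or either starved array of shCDK8 cells. The reductase TP53I3 was highest (1.07 ± 0.07, adjusted p = 9.95e-06), followed by TP53INP1 (0.94 ± 0.10), ZMAT3 (0.75 ± 0.09) and MDM2, the ligase that degrades p53 (0.51 ± 0.06). GDF15 and PMAIP1 were lower (-0.43 and -0.35), and neither passed without serum array 1 of either line.

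With serum, which raised 0.424% of all genes in shControl and 0.250% in shCDK8 cells, 3 of these p53 and stress targets rose in shControl cells, GDF15 (1.09 ± 0.10), PMAIP1 (0.72 ± 0.07) and GADD45A (0.69 ± 0.08). GDF15 and PMAIP1 rose in shCDK8 cells too, a count of 2 that was 0 without either starved array or serum array 2 of shCDK8 cells and 1 without either starved array of shControl cells. Of 28 analysed immediate-early genes 23 rose in shControl (median 1.62) and 19 in shCDK8 cells (median 1.19). Fewer rose in shControl cells without any single array, and in shCDK8 cells without any but the serum arrays of shControl cells. After serum 17 of the 28 were lower in shCDK8 cells (median -0.51, with 6.54% of all genes lower). That count was smaller without either serum array of shControl or serum array 1 of shCDK8 cells. KLF6, CCN2 and MYC were higher, with 7.70% of all genes higher. In starved cells 8 were already lower and 3 higher (median -0.11), with 6.28% of all genes lower and 7.13% higher. FOS and EGR1 (-1.25 each) were among the lower genes and KLF6 (0.95) among the higher ones. Both of these counts were smaller when any single starved array was left out, and the count of higher genes is near the background. The list of immediate-early genes, like that of p53 targets, was written with earlier results known and is no independent support for either direction.

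**Figure D4:**
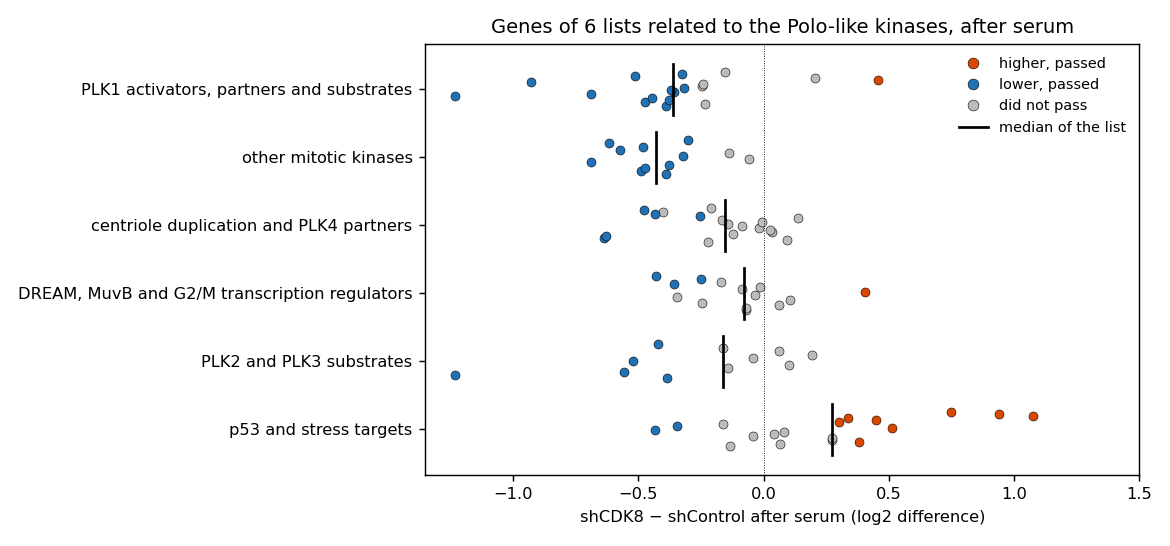
Log2 differences between shCDK8 and shControl cells after serum for the genes of 6 lists, 1 point per gene, coloured by limma's test, with the median of each list as a line. Of the 18 genes around PLK1, 12 lie to the left as lower calls, with a median of -0.36, and 8 of 18 p53 and stress targets lie to the right as higher calls, with a median of 0.27. Both counts were smaller when any single serum array was left out.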

How the data were processed

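Biotin-labelled RNA of each of the 8 samples was measured on its own Affymetrix array. The authors deposited log2 levels per probe set, made with RMA per the submitters' processing notes. RMA corrects background, quantile-normalizes and summarises probes, and so removes global shifts between arrays. Its version, any joint treatment of the arrays and the build behind the probe sets were not stated.

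Of 33297 probe sets, 19460 were paired with 1 gene, and the probe set with the highest mean was kept for each of 18417 genes. Means of the 4 groups were estimated by limma 3.58.1 in R 4.3.3, with 4 residual and 5.49 prior degrees of freedom and two-sided p-values adjusted by Benjamini-Hochberg over all genes and a threshold of 0.05. Errors of differences are model SEs. A test of PLK2 and PLK3 between the lines after serum had been planned, and its p-values are not reported because the values that led to the choice of the family fix those differences. The procedure was tested on simulated data. Members, lists and motifs were chosen with earlier results of these data known. Named were the members, PLK5, CDK8, the 5 genes nearest each member, and up to 4 genes past the threshold per list and comparison. AURKA, NINL, RBM14, CDC25A after serum, KLF6, CCN2, MYC and the lower p53 targets were named after their values were seen. So were the genes nearest PLK2 by correlation. Symbols and promoters came from RefSeq tables of GRCh38.p14, and a listed gene under an older symbol was matched through its synonyms. Figures were drawn with matplotlib 3.10.9.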

Additional observations from a re-analysis of the deposited data

Results flagged for a closer look

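The order of the PLK1 arrays differed between the lines: both serum arrays lay below both starved arrays in shControl cells and above them in shCDK8 cells. The 95% intervals of the responses were -0.18 to 0.11 in shControl and -0.04 to 0.25 in shCDK8 cells. The direction of neither response can thus be told. The difference between the responses was 0.14 on the log2 scale, which did not pass limma's test over all genes, and 39.7% and 41.2% of genes had arrays that did not overlap in the serum comparisons of the lines.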

How the results depend on the processing

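Of the alternatives, cyclic loess, median centring, the mean of probe sets and the omission of dim genes (below the 25th percentile) left each count of called genes within 1.5 times its value. Median centring moved the median of all genes by up to 0.032 and cyclic loess by up to 0.016. With an intensity trend 128 genes were called for serum in shControl cells (85 in the fit described), 100 for serum in shCDK8 cells (47) and 7 for the difference of responses (0), and PLK3 was also called for serum in shCDK8 cells. With only the 4 shCDK8 arrays fitted, 28 genes were called for serum in that line. Leaving out 1 array gave 33 to 85 and 23 to 51 genes for serum in the lines, 1468 to 2315 between the lines in starved cells, 1452 to 2564 after serum, and 0 to 1 for the difference of responses. A group left with 1 array was assumed to vary like the others. The differences of PLK2 kept their sign in every alternative run, those of PLK1 likewise, and those of PLK3 and PLK4 in the comparisons where they were called. The replicate numbers do not pair the samples by any label, and deviations of same-numbered arrays correlated between -0.19 and 0.13; with a replicate block the PLK4 difference after serum was -0.41 (adjusted p = 0.0239) and no call of a member changed. The cause of these changes was not tested. The number of arrays limits the precision.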
